A study of Mus musculus with 24 samples.

Results

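The 8 genes described here encode transcription factors that set or change the identity of microglia, the resident macrophages of the brain. They are the lineage factors Sall1, Spi1 (which encodes PU.1), Mef2a, Mef2c and Runx1, and the CCAAT/enhancer-binding protein (C/EBP) genes Cebpa, Cebpb and Cebpd. They were taken by symbol from a table of 55434 genes. Reads were found for 28481 of them. All 8 genes passed the filter on low counts in every fit, and each was read in every library, with 208 to 23657 reads. Counts came from 24 RNA-seq libraries of mouse brain cells positively selected for CD11b, the surface integrin encoded by Itgam, with 3 libraries in each of 8 groups. The neonatal cells came from MRL/lpr mice and had been kept for 48 h in DMEM/F-12 with 10% serum and antibiotics. They were then either unstimulated or given, for 6 h, the type II interferon IFNg, the type I interferon IFNa, the gp130 cytokine IL-6, the tumour necrosis factor TNFa or a mixture of these 4, at doses not analysed here. The adult cells came from untreated 16-week MRL/lpr and MRL/MpJ mice and were not put in culture. The lpr mutation of MRL/lpr mice lies in the death receptor gene Fas, and these mice develop lupus-like disease, and MRL/MpJ is their parent strain. All 6 neonatal groups carry lpr, so the unstimulated control does too.

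PU.1 opens the enhancers of the macrophage lineage, and in microglia it shares many of them with RUNX1, MEF2 and C/EBP proteins. Sall1, a zinc finger factor that in the brain marks microglia among immune cells, holds their homeostatic gene programme under TGF-beta signalling. C/EBP alpha drives myeloid differentiation, whereas C/EBP beta and delta are induced by inflammatory signals and bind the promoters of cytokine and acute-phase genes.

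Library totals ran from 10.08 to 19.32 M counts. Nothing in the labels says that the 3 libraries of a group came from separate animals or cultures, so p-values measure only the spread between these samples, which may be technical. The list of 7 microglial markers (P2ry12, Tmem119, Cx3cr1, Csf1r, Aif1 and Trem2 among them) had 0 genes without reads in the adult and unstimulated groups. Its summed level was 38985 to 42902 plain CPM (counts per M counts of the library) in adult MRL/lpr, 60155 to 61250 in adult MRL/MpJ and 8491 to 9441 in unstimulated neonatal cells. Because RNA was measured in bulk, fewer cells of a type and less RNA per cell cannot be told apart. Below, scaled CPM are corrected by TMM, edgeR's trimmed mean scaling. Log2 changes are given ± SE from edgeR's quasi-likelihood test, and a gene is said to have risen or fallen only at an adjusted p under 0.05 over all genes tested.

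With the cytokine mixture all 8 genes passed the test, against 32% of the 14626 genes tested. Sall1, Spi1, Runx1, Cebpb and Cebpd rose, where 15.7% of all genes did. Mef2a, Mef2c and Cebpa fell, where 16.4% did. IFNg moved 6 of 8: 4 rose (Sall1, Spi1, Runx1 and Cebpb; 8.57% of all genes) and 2 fell (Mef2c and Cebpa; 4.32%), with 12.9% of all genes called in either direction. TNFa moved 5 of 8 against a background of 8.1%. Of these Spi1, Cebpb and Cebpd rose (4.38% of all genes) and Sall1 and Cebpa fell (3.72%). IFNa moved 4 of 8 against 14.5%, with Sall1, Runx1 and Cebpb higher (9.41% of all genes) and Mef2c lower (5.07%). IL-6 raised 1 of 8, Cebpb, where 0.978% of all genes were called, 0.745% upwards and 0.232% downwards. All 5 comparisons share the same 3 unstimulated libraries. The 8 factors were chosen with earlier results of these data known. Each had 208 reads or more in every library, whereas the genes tested include some with fewer. The shares of all genes are therefore a description and not a test of the set. The shares of all genes given here are also the background for the counts of gene and marker lists with each stimulus below. On total counts in place of TMM, the genes called higher and lower numbered 1547 and 4993 with the mixture (2289 and 2398 on TMM), 996 and 1211 with IFNg (1254 and 632) and 1190 and 1560 with IFNa (1377 and 741).

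The neonatal libraries of different groups pair by replicate number, and a fit with that number as a block made more calls, among these factors and among all genes. Calls, SEs and results with a library left out are from fits without the block unless it is named. With the block IL-6 moved 3 of 8 (Runx1 adjusted p = 0.0109 and Cebpd 0.0163, both higher), where 4.88% of all genes were called. IFNa moved 5 against 25.4%, with Spi1 added (adjusted p = 0.0211, higher). TNFa moved 7 against 17.4%, with Mef2a (0.00569) and Mef2c (0.00189) lower. IFNg moved 6 and the mixture 8 as without it, against 23.7% and 43.2%. Marker lists moved with the stimuli too. The list for the response to cell isolation (Fos, Jun, Egr1, Atf3 and others) summed to 1724 to 2139 plain CPM with the mixture against 915 to 1051 in unstimulated cells, with 6 of 12 genes higher and 1 lower. Microglial markers summed to 4878 to 5942 with the mixture (2 of 7 higher and 2 lower), and monocyte markers to 129 to 222 against 39.9 to 72.8 (3 of 7 higher and 0 lower). Endothelial markers summed to 129 to 162 with the mixture and 179.9 to 201 with IFNa against 25.9 to 54.4 (2 of 5 higher and 0 lower in each). T cell markers summed to 27.4 to 72.1 with the mixture against 6.55 to 13.98, with 1 of 2 tested higher and Cd3e, Cd3d, Cd8a and Cd8b1 at 0 reads with the mixture. Border macrophage markers summed to 908 to 1150.5 against 1708 to 1972, with 0 of 7 tested higher and 1 lower. Astrocyte markers varied widely within every neonatal group. They ran from 22.8 to 352 plain CPM in unstimulated cells, 35.4 to 294 with IFNg and 33.7 to 343 with IL-6. With IFNa they ran from 20.1 to 310, with TNFa from 29.3 to 339 and with the mixture from 23.6 to 317. Their part in the changes of the 8 factors was not tested.

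**Figure D1:**
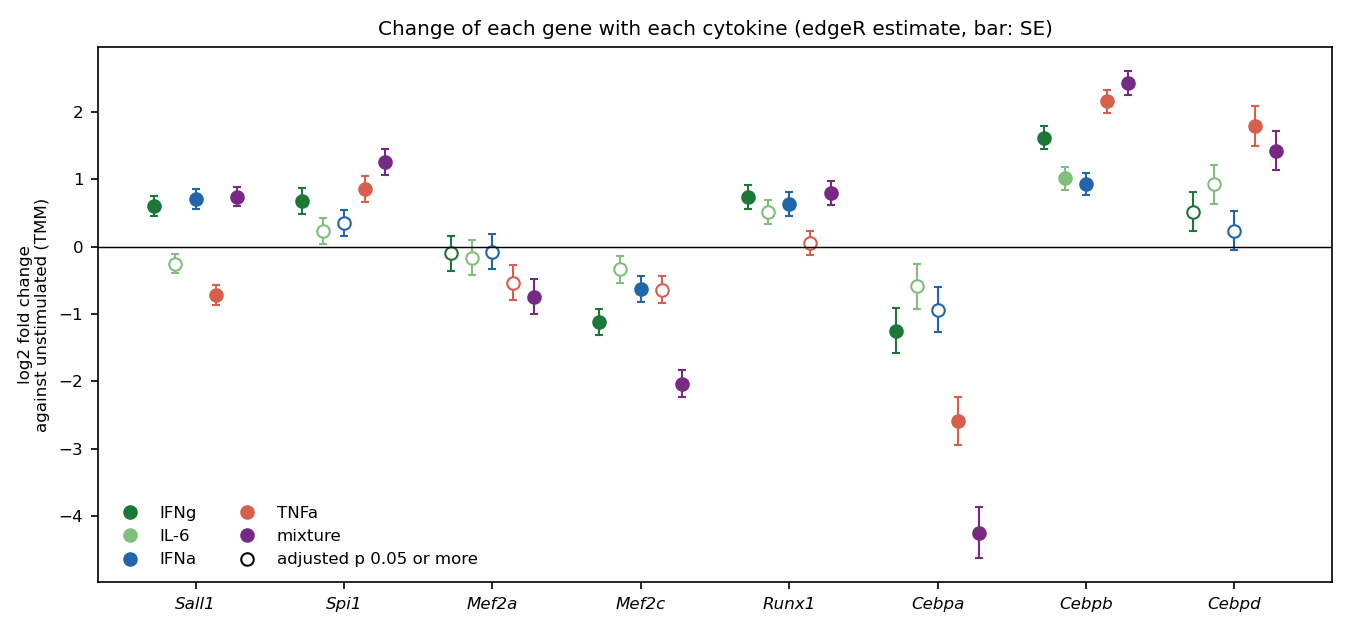
Log2 change (TMM scaling, edgeR estimate) of each gene with each stimulus against unstimulated neonatal cells, bars giving the SE and open symbols an adjusted p of 0.05 or more. Cebpb was higher with every stimulus and Cebpa had the lowest value of all, -4.25, with the mixture, while Sall1 lay above 0 with IFNg, IFNa and the mixture and below 0 with TNFa.

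Among the C/EBP genes, the balance in unstimulated cells lay with Cebpa, and every stimulus moved it towards Cebpb. All 3 genes are compact, each with its exons in a single block of the GENCODE M21 annotation (mm10): Cebpa at chr7:35119293-35121928, Cebpb at chr2:167688915-167690418 and Cebpd at chr16:15887286-15891031, all on the plus strand. Each overlaps an exon of a gene on the opposite strand (Gm45091, Tmem189 and Spidr, over 51, 312 and 562 bases), and the strand setting of the counting is not given in the sources used here. Gm45091 had 0 to 35 reads in a library, Tmem189 551 to 2381 and Spidr 151 to 429. Because Cebpa and Cebpb moved in opposite directions, their sequences before the transcription start are shown, from RefSeq on GRCm38.p6. Capitals mark the letters TATAAA in Cebpa (chr7:35119043-35119292, plus strand) and TGACG, a half-site of the cyclic AMP response element, on either strand in Cebpb (chr2:167688665-167688914, plus strand).
Cebpa: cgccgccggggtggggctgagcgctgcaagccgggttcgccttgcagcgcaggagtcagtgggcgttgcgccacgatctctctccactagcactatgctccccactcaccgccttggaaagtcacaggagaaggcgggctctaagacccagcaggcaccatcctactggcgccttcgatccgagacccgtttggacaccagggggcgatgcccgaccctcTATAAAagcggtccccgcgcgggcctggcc
Cebpb: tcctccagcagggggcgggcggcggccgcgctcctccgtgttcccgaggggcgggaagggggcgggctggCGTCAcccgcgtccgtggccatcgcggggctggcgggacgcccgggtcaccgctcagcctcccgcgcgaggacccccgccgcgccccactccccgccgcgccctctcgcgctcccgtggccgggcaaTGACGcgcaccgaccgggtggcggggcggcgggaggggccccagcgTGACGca

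Both windows are rich in G and C. Counted with the first 50 transcribed bases, the 300-base window held 67.3% G and C and 29 CpG dinucleotides in Cebpa and 80.7% and 50 in Cebpb, against medians of 52.7% and 7 over 32851 windows of the same length. Neither window held any of 8 motifs searched on both strands: GAS TTCNNNGAA, CRE TGACGTCA, C/EBP TTNCNNAA, PU.1 GAGGAAGT, RUNX TGTGGT, or the ISRE, NF-kappaB and MEF2 consensus. These occur in 8.3%, 1.79%, 40.7%, 3.2%, 16.8%, 3.44%, 8.46% and 3.19% of all windows. Windows of a chromosome that carries none of the 8 genes were left out of these shares and of the medians. TGACG and TATAAA were added after these windows were read. TGACG, which lies within the CRE, occurs in 20.8% of windows and 3 times in that of Cebpb. TATAAA occurs in 13.6%, and in Cebpb it lies 21 to 26 bases after the start, outside the stretch shown. A match is a description of letters only. RefSeq windows matched 6 of the 8 genes, in 11 windows, of which 6 held none of the 8 motifs.

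Cebpa, which drives myeloid differentiation and restrains the cell cycle, was high in unstimulated cells, at 801, 1024 and 943 scaled CPM. IFNg lowered it to 453, 427 and 285 (log2 change -1.25 ± 0.34, edgeR adjusted p = 0.0214) and TNFa to 154, 209.6 and 95.7 (log2 change -2.59 ± 0.35, edgeR adjusted p = 0.00014). The mixture left 38.2, 74.3 and 33.5 scaled CPM, or 514, 1019 and 482 reads against 12408, 16974 and 16761. All stimulated libraries named so far lay below all unstimulated ones. The fall with the mixture was 18.96-fold (log2 change -4.25 ± 0.38, edgeR adjusted p = 5.82e-07). IL-6 gave 513, 618 and 712 scaled CPM (log2 change -0.59 ± 0.33, edgeR adjusted p = 0.638) and IFNa 364, 383 and 696 (log2 change -0.94 ± 0.33, edgeR adjusted p = 0.0762), with no overlap with unstimulated cells and no call in either. With IFNa the third library stood apart from the others, and without it Cebpa passed the test (log2 change -1.30, edgeR adjusted p = 0.0212). DESeq2 called it with all libraries (adjusted p = 0.0264).

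The IFNg call on Cebpa was lost when any 1 of 4 libraries was left out (unstimulated 2 or 3, IFNg 2 or 3; edgeR adjusted p = 0.0543 to 0.0902). Its direction remained downward in each.

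Cebpb, the C/EBP gene tied to emergency myelopoiesis and inflammatory gene induction, read 101, 99.7 and 98.9 scaled CPM in unstimulated cells. These libraries lay further apart in plain CPM, at 124, 107 and 101. Cebpb rose with all 5 stimuli, with no overlap between stimulated and unstimulated libraries. IFNa gave 196, 202 and 174 (log2 change 0.93 ± 0.17, edgeR adjusted p = 0.00106) and IL-6 157, 210.3 and 238 (log2 change 1.01 ± 0.17, edgeR adjusted p = 0.00572). IFNg gave 303, 319 and 298 (log2 change 1.62 ± 0.17, edgeR adjusted p = 1.19e-05). The highest levels came with TNFa, at 408, 535 and 395 (log2 change 2.16 ± 0.17, edgeR adjusted p = 5.73e-07), and the mixture, at 429, 635 and 547 (log2 change 2.43 ± 0.17, edgeR adjusted p = 6.16e-08). Between TNFa and the mixture the libraries overlapped. The IL-6 call did not hold in a fit of only the IL-6 and unstimulated libraries (log2 change 0.99, edgeR adjusted p = 0.0505).

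Cebpd, an acute-phase factor known to follow STAT3 activation, was the least abundant of the 8 genes per length in unstimulated cells. Its unstimulated libraries read 27.3, 14.4 and 18.2 scaled CPM and varied more than those of Cebpb. TNFa raised it to 70.7, 72.6 and 64.6 (log2 change 1.79 ± 0.29, edgeR adjusted p = 0.000749) and the mixture to 62.2, 63.1 and 35.4 (log2 change 1.42 ± 0.29, edgeR adjusted p = 0.00131), each above every unstimulated library. With IL-6 it read 37.8, 36.1 and 39.7 (log2 change 0.92 ± 0.29), also without overlap, called with the replicate block but not without it (edgeR adjusted p = 0.21). IFNg (log2 change 0.52 ± 0.29, edgeR adjusted p = 0.318) and IFNa (log2 change 0.24 ± 0.29, edgeR adjusted p = 0.734) overlapped the unstimulated cells and did not pass.

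To compare levels between the 3 genes, reads were divided by the gene length given in the table, and each gene's share of the summed reads per kb was taken within each library, which needs no scaling between libraries. Cebpb made up 15.9% ± 1.70 (SD, n = 3) of this sum in unstimulated cells and Cebpa 82.8% ± 2.26. The Cebpb share was 35.4% ± 1.39 with IL-6, 41.4% ± 9.74 with IFNa and 57.2% ± 5.53 with IFNg. It reached 79.7% ± 2.90 with TNFa and 91.6% ± 2.31 with the mixture, where Cebpa held 4.63% ± 1.37. In reads per kb there were 0.171 to 0.221 of Cebpb for each of Cebpa in unstimulated libraries and 14.98 to 28.6 with the mixture. Every stimulated library had a higher Cebpb share than every unstimulated one. The differences ran from 19.6 percentage points with IL-6 to 75.7 with the mixture, each with an exact 2-sided permutation p = 0.1, the smallest that 3 against 3 libraries can give. The summed reads per kb of the 3 genes moved less: 466 ± 27.8 plain CPM per kb in unstimulated cells and 322 ± 57.1 with the mixture.

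**Figure D2:**
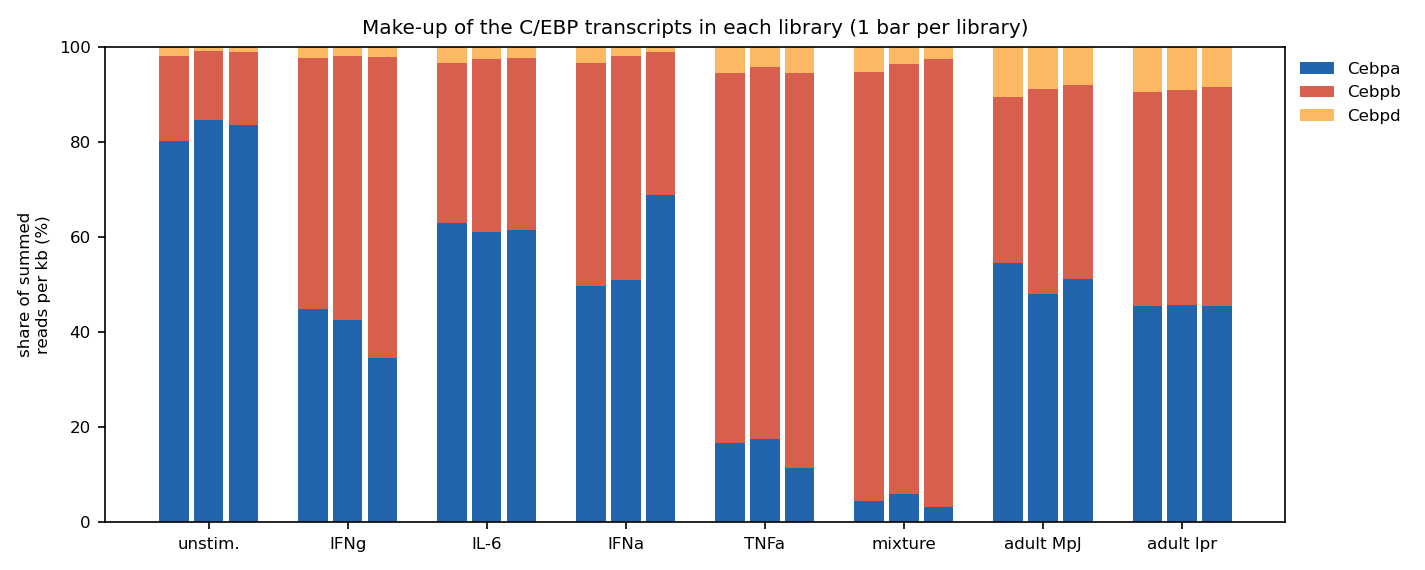
Share of Cebpa, Cebpb and Cebpd in their summed reads per kb (%), with 1 bar for each library and 3 bars for each of the 8 groups. Cebpa takes 82.8% on average in unstimulated cells and 4.63% with the mixture, where Cebpb takes 91.6%, and the adult libraries lie between.

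Of 14 inflammatory genes listed as C/EBP beta and delta targets, 13 were tested in the neonatal fit. With the mixture 9 rose and 0 fell, with a median log2 change of 4.23 where the median over all genes was -0.05. Il6, Nos2 and Il12b had 0 reads in unstimulated cells, so the median was also taken with such genes at a floor of 3 reads over the group, leaving out those not above it, which gave 4.22. These genes passed the filter on low counts only through stimulated libraries, so the filter itself favoured a rise in them. They remain in the counts given for each stimulus. C3, the central complement component, rose from 8.67 ± 3.63 to 213 ± 36.4 plain CPM (log2 change 5.06 ± 0.30, edgeR adjusted p = 1.09e-08). Nos2, the inducible nitric oxide synthase, had 5986 reads over the 3 mixture libraries, and 114, 103, 62 and 4 with IFNg, IFNa, TNFa and IL-6. TNFa raised 6 of 13 and lowered 0 (median 3.54, 3.20 with the floor, over all genes -0.02), among them Il1b, at 91.6 ± 31.2 against 1.66 ± 1.00 plain CPM (log2 change 5.87 ± 0.74, edgeR adjusted p = 8.9e-05). IFNg raised 5 and lowered 1, the lipopolysaccharide co-receptor gene Cd14 (log2 change -1.17 ± 0.21, edgeR adjusted p = 0.00145), with a median of 2.66 (1.89 with the floor, over all genes -0.02). IFNa likewise raised 5 and lowered 1 (median 1.12, 1.21 with the floor, over all genes -0.04). IL-6 moved 0 of 13, while Cebpb rose (median 0.99, 0.66 with the floor, over all genes 0.00). 

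Upstream of Cebpb and Cebpd lies the IL-6 receptor and STAT3 list of 6 genes. IL-6 raised 2 of them and lowered 0: the feedback inhibitor Socs3, at 194 ± 22.6 against 4.08 ± 4.49 plain CPM (log2 change 5.71 ± 0.59, edgeR adjusted p = 0.000213), and Stat3, at 317 ± 13.1 against 109 ± 11.4 plain CPM (log2 change 1.59 ± 0.15, edgeR adjusted p = 5.63e-05). IFNg raised 4 and lowered 0, IFNa raised 2 and lowered 0, TNFa raised 2 and lowered 1, the shared receptor chain Il6st (log2 change -1.54 ± 0.38, edgeR adjusted p = 0.0186), and the mixture raised 4 and lowered 2. Among 6 tested relatives and regulators of the C/EBP genes, Trib1, a pseudokinase that directs C/EBP alpha protein to degradation, rose with all 5 stimuli (with IL-6 log2 change 0.91 ± 0.16, edgeR adjusted p = 0.0121; with the mixture log2 change 1.26 ± 0.17, edgeR adjusted p = 2.1e-05). Cebpg, a C/EBP protein without an activation domain, fell with TNFa (log2 change -0.95 ± 0.18, edgeR adjusted p = 0.00229) and the mixture (log2 change -1.16 ± 0.18, edgeR adjusted p = 9.78e-05). Cebpz fell with IFNa (log2 change -0.60 ± 0.15, edgeR adjusted p = 0.0124) and the mixture (log2 change -1.003 ± 0.15, edgeR adjusted p = 9e-05).

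Spi1 (chr2:91082390-91115756, plus strand, 7 exon blocks) encodes PU.1, without which macrophages and microglia do not form. Unstimulated libraries read 407, 511 and 546 scaled CPM. TNFa gave 805, 1019 and 819 (log2 change 0.85 ± 0.19, edgeR adjusted p = 0.00887), IFNg 710.3, 779.6 and 849 (log2 change 0.68 ± 0.19, edgeR adjusted p = 0.0273) and the mixture 898, 1186 and 1419 (log2 change 1.26 ± 0.19, edgeR adjusted p = 9.57e-05), with no overlap with unstimulated cells. The mixture level was 2.39-fold that of unstimulated cells. IL-6 (log2 change 0.23 ± 0.19, edgeR adjusted p = 0.804) and IFNa (log2 change 0.35 ± 0.19, edgeR adjusted p = 0.296) overlapped the control and did not pass. With the replicate block IFNa passed (adjusted p = 0.0211) and IL-6 did not (0.253). The IFNg call was lost when any 1 of 4 libraries was left out (unstimulated 1 or 2, IFNg 2 or 3; edgeR adjusted p = 0.0704 to 0.130), and the TNFa call without unstimulated library 1 (0.0511) or TNFa library 2 (0.0544).

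Of 12 PU.1-dependent myeloid genes, 0 to 3 were called with each single cytokine and 4 with the mixture. TNFa moved 0 of 12 (median log2 change 0.04, over all genes -0.02). IFNg raised 2 and lowered 0 (median 0.12, over all genes -0.02): the Fc receptor Fcgr1 (log2 change 1.73 ± 0.41, edgeR adjusted p = 0.0092) and Ptprc, which encodes CD45 (log2 change 1.34 ± 0.22, edgeR adjusted p = 0.000628). The mixture raised 4 and lowered 0 (median 0.05, over all genes -0.05), Fcgr1 (log2 change 2.38 ± 0.41, edgeR adjusted p = 0.00035) and Ptprc (log2 change 1.26 ± 0.22, edgeR adjusted p = 0.000317) among them, while Csf1r, the receptor that keeps microglia alive, read 1571 ± 207 against 2396 ± 269 plain CPM (log2 change -0.19 ± 0.21, edgeR adjusted p = 0.573). IFNa raised 2 and lowered 1 (median -0.15, over all genes -0.04) and IL-6 moved 0 (median -0.01, over all genes 0.00). Of 8 tested ETS relatives of PU.1, 4 rose and 3 fell with the mixture, where 32% of all genes were called. Etv6 rose (log2 change 2.27 ± 0.18, edgeR adjusted p = 1.81e-07) and Ets2 rose (log2 change 2.32 ± 0.24, edgeR adjusted p = 2.35e-06), whereas Ets1 fell (log2 change -1.86 ± 0.24, edgeR adjusted p = 1.85e-05). With IFNa 4 rose and 1 fell, and with IFNg, TNFa and IL-6 1 rose in each and 1, 1 and 0 fell.

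Sall1 (chr8:89027235-89044162, minus strand, 4 exon blocks) moved in opposite directions with different cytokines. Unstimulated libraries read 52.9, 64.9 and 53.6 scaled CPM. IFNg gave 81.8, 84.96 and 93.2 (log2 change 0.60 ± 0.15, edgeR adjusted p = 0.0108), IFNa 94.6, 105 and 80.9 (log2 change 0.71 ± 0.15, edgeR adjusted p = 0.0029) and the mixture 98.4, 76.9 and 111 (log2 change 0.74 ± 0.15, edgeR adjusted p = 0.000868), all above the unstimulated libraries. TNFa gave 34.8, 35.6 and 33.9 (log2 change -0.72 ± 0.15, edgeR adjusted p = 0.0044), all below them. The difference itself passed the test for IFNg against TNFa (log2 change 1.32 ± 0.15, edgeR adjusted p = 1.9e-05) and IFNa against TNFa (log2 change 1.43 ± 0.15, edgeR adjusted p = 5.52e-06). IL-6 overlapped the control (log2 change -0.25 ± 0.15, edgeR adjusted p = 0.645). Scaling matters here, because replacing TMM by total counts moved the median log2 change of all genes by -0.19 with IFNg, -0.18 with IFNa, -0.07 with TNFa and -0.42 with the mixture. On total counts Sall1 had a log2 change of 0.42 with IFNg (edgeR adjusted p = 0.0991) and 0.32 with the mixture (0.115), while the IFNa and TNFa calls held. The IFNg call was also lost without unstimulated library 1 (0.0562) or IFNg library 3, where the adjusted p of 0.050 was just over the threshold.

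The homeostatic genes known to depend on Sall1 moved in both directions with IFNg, IFNa, TNFa and the mixture. Of 11 such genes, IFNg raised 2 and lowered 4 (median log2 change -0.14, over all genes -0.02), and the mixture raised 2 and lowered 4 (median -0.26, over all genes -0.05). The fractalkine receptor Cx3cr1 fell with IFNg (131 ± 16.4 against 1009 ± 18.8 plain CPM, log2 change -2.78 ± 0.31, edgeR adjusted p = 2.31e-05), and the purine receptor P2ry13 rose (log2 change 1.56 ± 0.37, edgeR adjusted p = 0.00947). IFNa raised 2 and lowered 3 (median -0.20, over all genes -0.04). TNFa, with Sall1 lower, raised 1 and lowered 3 (median -0.02, over all genes -0.02): the receptor gene Gpr34 (log2 change -2.25 ± 0.28, edgeR adjusted p = 5.83e-05), P2ry13 (log2 change -1.95 ± 0.38, edgeR adjusted p = 0.00357) and P2ry12 (log2 change -1.82 ± 0.26, edgeR adjusted p = 0.000172) fell and Tmem119 rose (log2 change 1.69 ± 0.36, edgeR adjusted p = 0.00569). IL-6 moved 0 of 11 (median 0.05, over all genes 0.00). Gpr34 fell with IFNg, IFNa, TNFa and the mixture. In the 10 genes of TGF-beta signalling, upstream of Sall1, the mixture raised 2 and lowered 4, where 32% of all genes were called. The receptor genes Tgfbr2 (log2 change -1.08 ± 0.22, edgeR adjusted p = 0.00105) and Tgfbr1 (log2 change -0.995 ± 0.26, edgeR adjusted p = 0.00819) were among the 4 that fell. IFNg raised 1 and lowered 2 of these 10, IFNa raised 2 and lowered 1, TNFa raised 1 and lowered 3 and IL-6 moved 0.

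**Figure D3:**
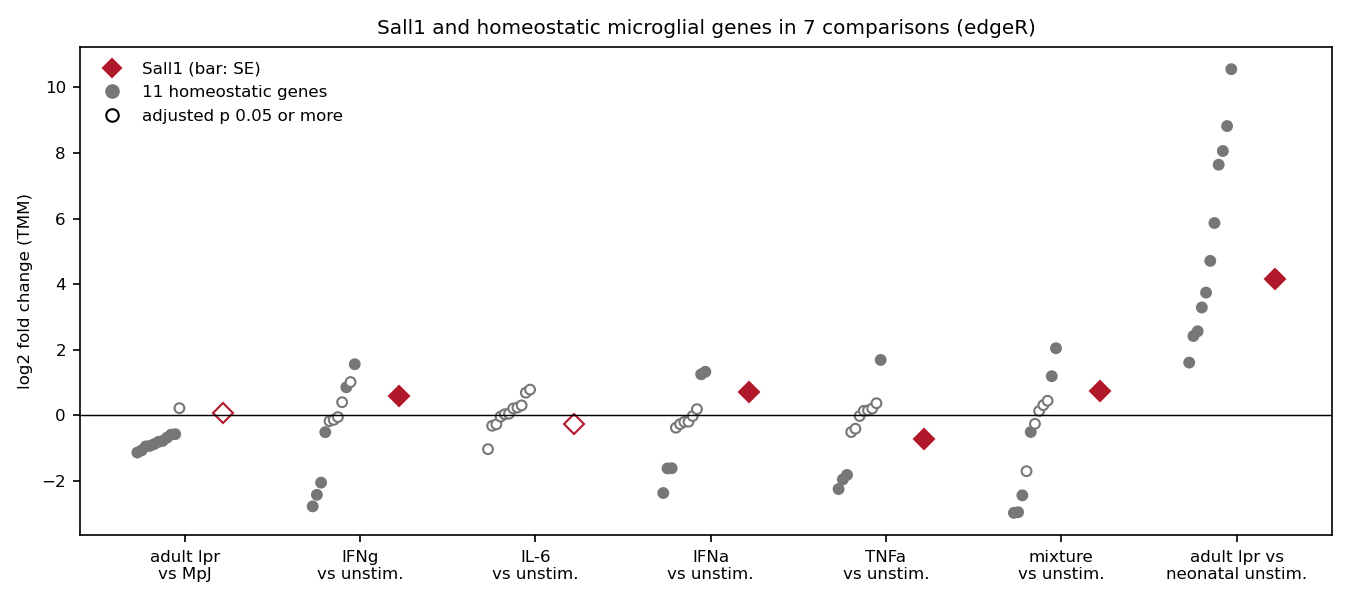
Log2 change (TMM scaling, edgeR estimate) of Sall1, as a diamond with its SE, and of 11 homeostatic genes known to depend on it, as circles, in 7 comparisons, open where the adjusted p was 0.05 or more. In the adult strain comparison 10 of the 11 genes lie below 0 while Sall1 is at 0.08, and against neonatal cells all 11 and Sall1 are higher in the adult MRL/lpr cells.

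The MEF2 genes encode MADS-box factors, and Mef2c restrains inflammatory responses of microglia. Mef2a lies at chr7:67231163-67372858 on the minus strand and Mef2c at chr13:83504034-83667080 on the plus strand. Their table lengths, 14681 and 15715 bases, join the exons of 12 and 31 transcripts, the longest of 5538 and 6277 bases, so their levels per length are understated. The same holds for Runx1 (12025 bases, 7 transcripts, the longest of 5861) and less so for Spi1 (2695 bases, 4 transcripts, the longest of 2034). Lysmd4, on the opposite strand, overlaps 302 exon bases of Mef2a and had 51 to 175 reads. The windows before the starts of Mef2a and Mef2c, again from RefSeq on GRCm38.p6, are shown because they carry matches that differ between these genes. For Mef2c only the window at the first base of the gene is shown. Of its other windows, chr13:83523406-83523705 held a C/EBP match only and chr13:83573357-83573656 none of the 8 motifs. GAS letters occur in 8.3% and C/EBP letters in 40.7% of all windows. Capitals mark a MEF2 consensus match that spans the start of Mef2a (chr7:67372851-67373108, minus strand). In Mef2c (chr13:83503784-83504033, plus strand) they mark a GAS match, the letters of STAT sites, 157 to 149 bases before the start, and a C/EBP match 79 to 72 bases before it.
Mef2a: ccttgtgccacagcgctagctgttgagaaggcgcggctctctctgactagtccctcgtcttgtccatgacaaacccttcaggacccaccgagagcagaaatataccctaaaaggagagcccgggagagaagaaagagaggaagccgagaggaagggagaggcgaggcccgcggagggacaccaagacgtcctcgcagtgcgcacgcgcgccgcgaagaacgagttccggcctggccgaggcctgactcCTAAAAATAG
Mef2c: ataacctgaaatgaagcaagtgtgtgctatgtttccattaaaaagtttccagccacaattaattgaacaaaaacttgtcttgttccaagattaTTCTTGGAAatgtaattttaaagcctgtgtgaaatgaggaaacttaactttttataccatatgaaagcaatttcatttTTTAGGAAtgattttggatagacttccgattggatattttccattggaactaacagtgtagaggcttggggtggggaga

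Mef2c was lowest of all groups with the mixture. Unstimulated libraries read 249, 316 and 327 scaled CPM and mixture libraries 53.3, 80.8 and 83.7, a 4.096-fold fall (log2 change -2.03 ± 0.20, edgeR adjusted p = 1.26e-06). IFNg gave 129.9, 127 and 154 (log2 change -1.12 ± 0.20, edgeR adjusted p = 0.000965), also without overlap. IFNa gave 154, 169.9 and 255, with 1 library above the lowest unstimulated one (log2 change -0.63 ± 0.19, edgeR adjusted p = 0.0402). That call was lost without any 1 of 4 libraries (edgeR adjusted p = 0.136 to 0.184) and in a fit of only these groups (0.0879). TNFa gave 171, 198 and 204, without overlap, at an edgeR adjusted p of 0.0559 without the replicate block (log2 change -0.64 ± 0.19) and 0.0161 by DESeq2, and IL-6 239, 242 and 224 (log2 change -0.34 ± 0.19, edgeR adjusted p = 0.639).

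Mef2a varied more between replicates and moved less. Its unstimulated libraries read 188, 218 and 316 scaled CPM and those of the mixture 112, 141 and 178 (log2 change -0.74 ± 0.26, edgeR adjusted p = 0.0395). This call was lost with RLE size factors (edgeR adjusted p = 0.0560), in a fit of only these groups (0.0538) and without any 1 of 4 libraries (0.0588 to 0.210). With TNFa it read 124, 165 and 210.1 (log2 change -0.53 ± 0.26, edgeR adjusted p = 0.295). IFNg, IL-6 and IFNa libraries overlapped the control, with log2 changes of -0.10 ± 0.26, -0.16 ± 0.26 and -0.07 ± 0.26. Of 6 genes for MEF2 relatives and the class IIa histone deacetylases that repress MEF2 targets, the mixture lowered 4 and raised 0 (median log2 change -1.12, over all genes -0.05). Hdac5 (log2 change -1.84 ± 0.25, edgeR adjusted p = 3.29e-05), Mef2d (log2 change -1.57 ± 0.25, edgeR adjusted p = 0.000112) and Hdac4 (log2 change -1.22 ± 0.29, edgeR adjusted p = 0.0043) fell most. IFNg, IFNa and TNFa each lowered 2 and raised 0, Hdac9 in all 3 (with TNFa log2 change -1.86 ± 0.36, edgeR adjusted p = 0.00314), and IL-6 moved 0.

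Runx1 (chr16:92601466-92826149, minus strand, 9 exon blocks) encodes a runt-domain factor of blood cell formation that is also active in microglia after birth. Unstimulated libraries read 78.2, 87.7 and 103 scaled CPM. IFNg gave 148, 143 and 157 (log2 change 0.73 ± 0.18, edgeR adjusted p = 0.0106), IFNa 114, 154 and 149 (log2 change 0.63 ± 0.18, edgeR adjusted p = 0.0228) and the mixture 135, 134 and 197 (log2 change 0.79 ± 0.18, edgeR adjusted p = 0.0025), all without overlap. TNFa gave 74.7, 96.2 and 109, overlapping the control (log2 change 0.06 ± 0.18, edgeR adjusted p = 0.953). IL-6 gave 124, 123 and 137, above every unstimulated library (log2 change 0.51 ± 0.18, edgeR adjusted p = 0.271 and 0.0109 with the replicate block). The difference between IFNg and TNFa passed (log2 change 0.68 ± 0.18, edgeR adjusted p = 0.0168), as did that between IFNa and TNFa (log2 change 0.58 ± 0.18, edgeR adjusted p = 0.0346). The IFNa call was lost without any 1 of 4 libraries (edgeR adjusted p = 0.0737 to 0.111) and the IFNg call without unstimulated library 1 (0.0598). Of 5 RUNX partners and relatives, the mixture raised Cbfb, the subunit that RUNX proteins bind DNA with (log2 change 0.88 ± 0.12, edgeR adjusted p = 2.52e-05), and lowered the corepressor Cbfa2t3 (log2 change -2.64 ± 0.64, edgeR adjusted p = 0.00434). TNFa lowered Cbfa2t3, to 5 reads over 3 libraries against 264 in unstimulated cells, and IFNg, IFNa and IL-6 moved 0 of 5.

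The mixture was next set against each of its parts. Cebpa was lower and Mef2c was lower with the mixture than with any single cytokine. For Cebpa the log2 differences were -3.00 ± 0.36 from IFNg, -3.66 ± 0.37 from IL-6, -3.31 ± 0.36 from IFNa and -1.65 ± 0.34 from TNFa (edgeR adjusted p = 2.6e-06 to 0.0019). For Mef2c they were -0.92 ± 0.20, -1.69 ± 0.20, -1.41 ± 0.20 and -1.40 ± 0.20 in the same order (edgeR adjusted p = 9.16e-06 to 0.00482). Cebpb was higher with the mixture than with IFNg (log2 change 0.81 ± 0.17, edgeR adjusted p = 0.00379), IL-6 and IFNa, but not than with TNFa (log2 change 0.27 ± 0.17, edgeR adjusted p = 0.287). Against TNFa the mixture was higher in Sall1 (log2 change 1.46 ± 0.15, edgeR adjusted p = 3.44e-06) and Runx1 (log2 change 0.73 ± 0.18, edgeR adjusted p = 0.00538), and against IFNg in Sall1 the libraries overlapped (log2 change 0.14 ± 0.14, edgeR adjusted p = 0.631). Spi1 was higher with the mixture than with IL-6 (log2 change 1.03 ± 0.19, edgeR adjusted p = 0.000668) and IFNa (log2 change 0.91 ± 0.19, edgeR adjusted p = 0.00712). Cebpd was higher than with IFNg (log2 change 0.91 ± 0.29, edgeR adjusted p = 0.046) and IFNa (log2 change 1.19 ± 0.29, edgeR adjusted p = 0.0187). These calls were lost without any 1 of 5 libraries for IFNg and of 4 for IFNa (edgeR adjusted p = 0.0569 to 0.147), and on total counts (0.182 and 0.0821).

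In counts, 4 of 8 genes differed between the mixture and IFNg (14.28% of all genes), 5 between the mixture and IL-6 (28.1%), 5 between the mixture and IFNa (7.94%) and 4 between the mixture and TNFa (25.2%). With the replicate block these were 6 (26.3% of all genes), 6 (39.4%), 6 (18.4%) and 5 (37%). It added Mef2a, lower with the mixture than with IFNg (adjusted p = 0.000569), IL-6 (0.000957) and IFNa (0.00129), and Spi1, higher than with IFNg (0.00053) and TNFa (0.00702). The mixture libraries are shared by all 4 comparisons. A separate contrast set the mixture's log2 change against the sum of the 4 single changes. Cebpb rose less than that sum (log2 difference -3.30 ± 0.46, edgeR adjusted p = 0.00148), the 1 of 8 genes called where 1.68% of all genes were. With the block Runx1 (log2 difference -1.17, edgeR adjusted p = 0.0264) and Cebpd (-2.10, 0.0434) were also below it, 3 of 8 against 6.56% of all genes. Cebpa differed from its sum by 1.12 ± 0.86 and did not pass (edgeR adjusted p = 0.767).

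Between single cytokines, TNFa stood apart from both interferons in 5 of 8 genes. Against IFNg these were Sall1, Runx1, Cebpa, Cebpb and Cebpd (12.8% of all genes called), and against IFNa they were the same 5 by name (16.27%). Cebpa was lower with TNFa than with IFNg (IFNg over TNFa 1.34 ± 0.34, edgeR adjusted p = 0.0135), and Cebpd was higher (IFNg over TNFa -1.28 ± 0.29, edgeR adjusted p = 0.00663). TNFa differed from IL-6 in Cebpa (IL-6 over TNFa 2.00 ± 0.34, edgeR adjusted p = 0.00121) and Cebpb (-1.14 ± 0.17, 0.000271), 2 of 8 where 7.01% of all genes were called. The interferons differed in Cebpb, higher with IFNg (log2 change 0.69 ± 0.17, edgeR adjusted p = 0.0236), 1 of 8 against 5.17%. IFNg and IL-6 differed in Sall1, Mef2c and Cebpb, 3 of 8 against 8.35%. IL-6 and IFNa differed in Sall1 (IL-6 over IFNa -0.96 ± 0.15, edgeR adjusted p = 0.000302), 1 of 8 against 13%. Over the 6 pairs this makes 17 calls of 48. The replicate block added 13. Between IL-6 and TNFa it gave 7 of 8, all but Mef2c (13.7% of all genes): Spi1 (adjusted p = 0.000219) and Cebpd (0.00988) were higher with TNFa, and Sall1 (0.0327), Mef2a (0.0492) and Runx1 (0.0072) higher with IL-6. Between IFNg and TNFa it also gave 7, adding Mef2a, higher with IFNg (0.00958), and Mef2c, lower (0.0118), against 22.5% of all genes. Between IFNa and TNFa the 7 added Spi1, lower with IFNa (0.000776), and Mef2a, higher (0.0108), against 26.7%. Spi1 was added between IFNg and IL-6, higher with IFNg (0.00436), making 4 against 17.8%. Between IFNg and IFNa the block gave 3 against 14.1%, with Spi1 higher (0.0337) and Mef2c lower with IFNg (0.021). Between IL-6 and IFNa it gave 2 against 23.7%, with Cebpd higher with IL-6 (0.0172). Without the block, the Cebpb calls between IFNg and IFNa and between IFNg and TNFa were lost without any 1 of 6 and of 5 libraries (edgeR adjusted p = 0.0572 to 0.235). Between IFNg and IL-6, Mef2c was lost without any 1 of 4 libraries and Cebpb of 5 (0.0592 to 0.167). Between IFNg and TNFa, Runx1 and Cebpa were each lost without any 1 of 3 (0.0512 to 0.0973), and between IFNa and TNFa, Runx1 without any 1 of 4 (0.0878 to 0.170).

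In adult microglia, the strain comparison asks how the cells of mice with lupus-like disease differ from those of the parent strain. All 3 C/EBP genes and Spi1 were lower in MRL/lpr. Cebpa read 288, 353 and 342 scaled CPM in MRL/lpr and 613, 712 and 691 in MRL/MpJ (log2 change -1.04 ± 0.11, edgeR adjusted p = 2.3e-05). Cebpd read 85.1, 99.4 and 90.7 against 166, 185 and 154 (log2 change -0.88 ± 0.11, edgeR adjusted p = 6.49e-05). Cebpb read 163, 199 and 198 against 223, 365 and 313 (log2 change -0.69 ± 0.16, edgeR adjusted p = 0.00414), and Spi1 378, 434 and 372 against 480.2, 539 and 498 (log2 change -0.36 ± 0.10, edgeR adjusted p = 0.0128). For each of these 4 genes the 2 strains did not overlap on this scale, and the share of all genes without overlap was not taken. In plain CPM Spi1 (412 to 468 against 432 to 499.7) and Cebpb (178 to 219 against 201 to 338) overlapped, whereas Cebpa and Cebpd did not. In this comparison 45.7% of 13799 genes were called, 24.1% higher and 21.6% lower in MRL/lpr, so 4 of 8 called is near the background. Sall1 (log2 change 0.08 ± 0.13, edgeR adjusted p = 0.65), Mef2a (log2 change 0.04 ± 0.11, edgeR adjusted p = 0.811), Mef2c (log2 change -0.12 ± 0.11, edgeR adjusted p = 0.403) and Runx1 (log2 change -0.01 ± 0.15, edgeR adjusted p = 0.957) overlapped between strains in scaled CPM and did not pass.

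These calls depend on the scaling. Total counts in place of TMM moved the median of all genes by 0.26, with 4783 genes higher and 1439 lower against 3328 and 2982. On total counts Cebpa and Cebpd stayed lower, whereas Spi1 (log2 change -0.10, edgeR adjusted p = 0.438) and Cebpb (-0.43, 0.0535) lost their calls. Sall1 (0.34, 0.0436) and Mef2a (0.30, 0.0295) became higher in MRL/lpr. The Spi1 call was also lost without MRL/lpr library 1 (0.0629) or 3 (0.0660) and with all 24 libraries in 1 fit (log2 change -0.42, edgeR adjusted p = 0.0556). Within each library the share of Cebpb among the C/EBP genes per kb was 45.4% ± 0.533 in MRL/lpr and 39.6% ± 4.24 in MRL/MpJ, a difference of 5.86 percentage points without overlap (exact 2-sided permutation p = 0.1, the smallest possible).

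Gene groups tied to these factors moved with the strain, where 45.7% of all genes were called, 24.1% higher and 21.6% lower. Of the 11 Sall1-dependent homeostatic genes 10 were lower and 0 higher in MRL/lpr (median log2 change -0.81, over all genes 0.01), although Sall1 itself was not called. Tmem119 read 3762 ± 251 against 6897 ± 153 plain CPM (log2 change -1.13 ± 0.10, edgeR adjusted p = 5.11e-06) and the fructose transporter gene Slc2a5 1219 ± 36.7 against 2137 ± 171 plain CPM (log2 change -1.07 ± 0.10, edgeR adjusted p = 1.04e-05). Siglech did not pass (log2 change 0.22 ± 0.11, edgeR adjusted p = 0.131). In TGF-beta signalling 6 of 10 were lower and 1 higher (median -0.31), Tgfbr1 most (log2 change -1.12 ± 0.15, edgeR adjusted p = 8.92e-05). Of 12 PU.1-dependent genes 9 were lower and 1, Ptprc, higher (median -0.55), with Laptm5 (log2 change -1.04 ± 0.11, edgeR adjusted p = 2.5e-05) and Csf1r (log2 change -0.88 ± 0.09, edgeR adjusted p = 2.07e-05) the lowest. Of the genes listed as C/EBP beta and delta targets, 6 of 9 tested were higher and 1, Cd14, lower (median 1.28). Cebpb and Cebpd themselves were lower on TMM scaling. Whether C/EBP proteins acted on the listed genes in these cells was not tested. Il1b read 65.2 ± 38.5 against 5.52 ± 0.838 plain CPM (log2 change 3.29 ± 0.43, edgeR adjusted p = 0.000608) and Tnf 17.29 ± 3.73 against 2.64 ± 0.832 plain CPM (log2 change 2.44 ± 0.28, edgeR adjusted p = 4.09e-05). Ddit3, which encodes the stress-induced C/EBP relative CHOP, was higher (log2 change 1.07 ± 0.19, edgeR adjusted p = 0.000737).

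Markers of microglia, of other cells and of handling moved with the strain as well, where 24.1% of all genes were higher and 21.6% lower. All 12 genes of the list for the response to cell isolation were higher in MRL/lpr, at a summed 3722 to 3998 plain CPM against 1103 to 1196. NK cell markers were higher in 5 of 7 (summed 66.0 to 83.9 against 16.2 to 31.4 plain CPM, Klre1 at 0 in MRL/MpJ). T cell markers were higher in 4 of 8 (18.2 to 21.9 against 5.94 to 10.7, Cd8b1 at 0 in MRL/MpJ), and monocyte markers in 3 of 7 (70.0 to 227 against 58.7 to 76.3). Border macrophage markers were lower in 6 of 8 and higher in 1 (441 to 768 against 526 to 617). Microglial markers were lower in 6 of 7 and higher in 0 (38985 to 42902 against 60155 to 61250). Oligodendrocyte markers were lower in 3 of 6 and higher in 0 (152 to 244 against 193 to 271). Those of mural cells and fibroblasts were also lower in 3 of 6 and higher in 0 (64.2 to 79.8 against 104 to 153). Their part in the differences of the 8 factors was not tested. Strain and any difference in preparation between the strains cannot be told apart.

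Of the 8 genes, Sall1 differed most between adult and cultured neonatal cells of the same strain. Adult MRL/lpr libraries read 1408, 1078 and 1375 plain CPM and unstimulated neonatal libraries 65.1, 69.8 and 54.8, a 17.9-fold difference (log2 change 4.16 ± 0.16, edgeR adjusted p = 4.14e-07). Adult cells were also higher in Cebpd, at 92.8, 107 and 101 against 33.6, 15.5 and 18.6 (log2 change 1.99 ± 0.24, edgeR adjusted p = 0.000199), and in Mef2a (log2 change 1.25 ± 0.18, edgeR adjusted p = 0.000383), Cebpb (log2 change 0.70 ± 0.12, edgeR adjusted p = 0.000942) and Mef2c (log2 change 0.42 ± 0.12, edgeR adjusted p = 0.0167). Cebpa was lower in the adult, at 314, 380.3 and 379.7 against 986, 1102 and 964 plain CPM (log2 change -1.69 ± 0.14, edgeR adjusted p = 1.42e-05), as was Spi1 (log2 change -0.51 ± 0.13, edgeR adjusted p = 0.0096). Runx1 differed by less than its spread (log2 change 0.12 ± 0.12, edgeR adjusted p = 0.418). Thus 7 of 8 were called, 5 higher and 2 lower, where 65.1% of 14064 genes were called, 35.1% higher and 30% lower, so the count again lies near the background. The Mef2c and Spi1 calls were each lost without some single libraries (edgeR adjusted p = 0.0555 to 0.0951 and 0.0597 to 0.0619), and with total counts, which moved the median of all genes by 0.18, Runx1 was called (0.31, 0.0319). Age, culture and preparation cannot be told apart in this comparison.

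All 11 Sall1-dependent genes were higher in the adult (median log2 change 4.71, over all genes 0.11), with the highest value in Slc2a5 (log2 change 10.56 ± 0.28, edgeR adjusted p = 1.72e-07). TGF-beta signalling had 7 of 10 higher and 0 lower (median 0.68), with Tgfbr1 at 2021 ± 203 against 316 ± 43.2 plain CPM (log2 change 2.48 ± 0.18, edgeR adjusted p = 6.98e-06). The other tested SALL genes, Sall3 (log2 change 2.02 ± 0.18, edgeR adjusted p = 2.08e-05) and Sall2 (log2 change 1.68 ± 0.25, edgeR adjusted p = 0.000407), were higher too. PU.1-dependent genes were split, with 6 of 12 higher and 3 lower: Cd33 had the highest value (log2 change 4.80 ± 0.18, edgeR adjusted p = 4.14e-07) and the lysosomal gene Cd68 was lower (log2 change -1.75 ± 0.16, edgeR adjusted p = 2.53e-05). In this comparison 65.1% of all genes were called, 35.1% higher and 30% lower. Counted in either direction, the PU.1-dependent and TGF-beta calls lie near that share. The isolation response list was higher in 11 of 12 and lower in 1, at 3722 to 3998 plain CPM against 915 to 1051. Markers of NK cells were higher in 7 of 7 (66.0 to 83.9 against 0.0575 to 0.635 plain CPM), of oligodendrocytes in 4 of 5 tested (152 to 244 against 67.5 to 81.1) and of monocytes in 4 of 7 (70.0 to 227 against 39.9 to 72.8). Microglial markers were higher in 6 of 7 and lower in 0 (38985 to 42902 against 8491 to 9441). Border macrophage markers were lower in 4 of 8 and higher in 2 (441 to 768 against 1708 to 1972). Those of mural cells and fibroblasts were lower in 3 of 6 and higher in 2 (64.2 to 79.8 against 122 to 512). Their part in these differences was not tested.

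Over all 8 groups in plain CPM, each gene had its own order of levels. Sall1 was highest in adult MRL/lpr (1287 ± 182, SD, n = 3) and MRL/MpJ (1015 ± 127), which overlapped, and the neonatal groups ran from 91.9 ± 13.6 with IFNa to 36.7 ± 3.90 with TNFa. Among the neonatal groups neighbours in this order overlapped except IL-6 and TNFa. Mef2a was highest in adult MRL/lpr (718 ± 35.7) and then MRL/MpJ (584 ± 60.1) and lowest with the mixture (118 ± 16.9). Mef2c ran likewise from 498 ± 37.1 and 451 ± 45.4 in the adults to 59.6 ± 10.0 with the mixture. Spi1 was highest with the mixture (958 ± 133) and TNFa (927 ± 130.0), which overlapped, and lowest in adult MRL/lpr (431 ± 31.8). Runx1 had the smallest ratio of highest to lowest group mean, from 145 ± 9.17 with IFNg to 97.4 ± 9.42 with TNFa, and all its neighbouring groups overlapped. Cebpa was highest in unstimulated cells (1017 ± 74.1), apart from all others, and lowest with the mixture (40.6 ± 18.9). Cebpb was lowest in unstimulated cells (111 ± 11.97) and highest with TNFa (470.0 ± 85.4). Cebpd was highest in adult MRL/MpJ (154 ± 16.1), then adult MRL/lpr (100.2 ± 7.198) and TNFa (73.3 ± 10.1), with no overlap among these.

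**Figure D4:**
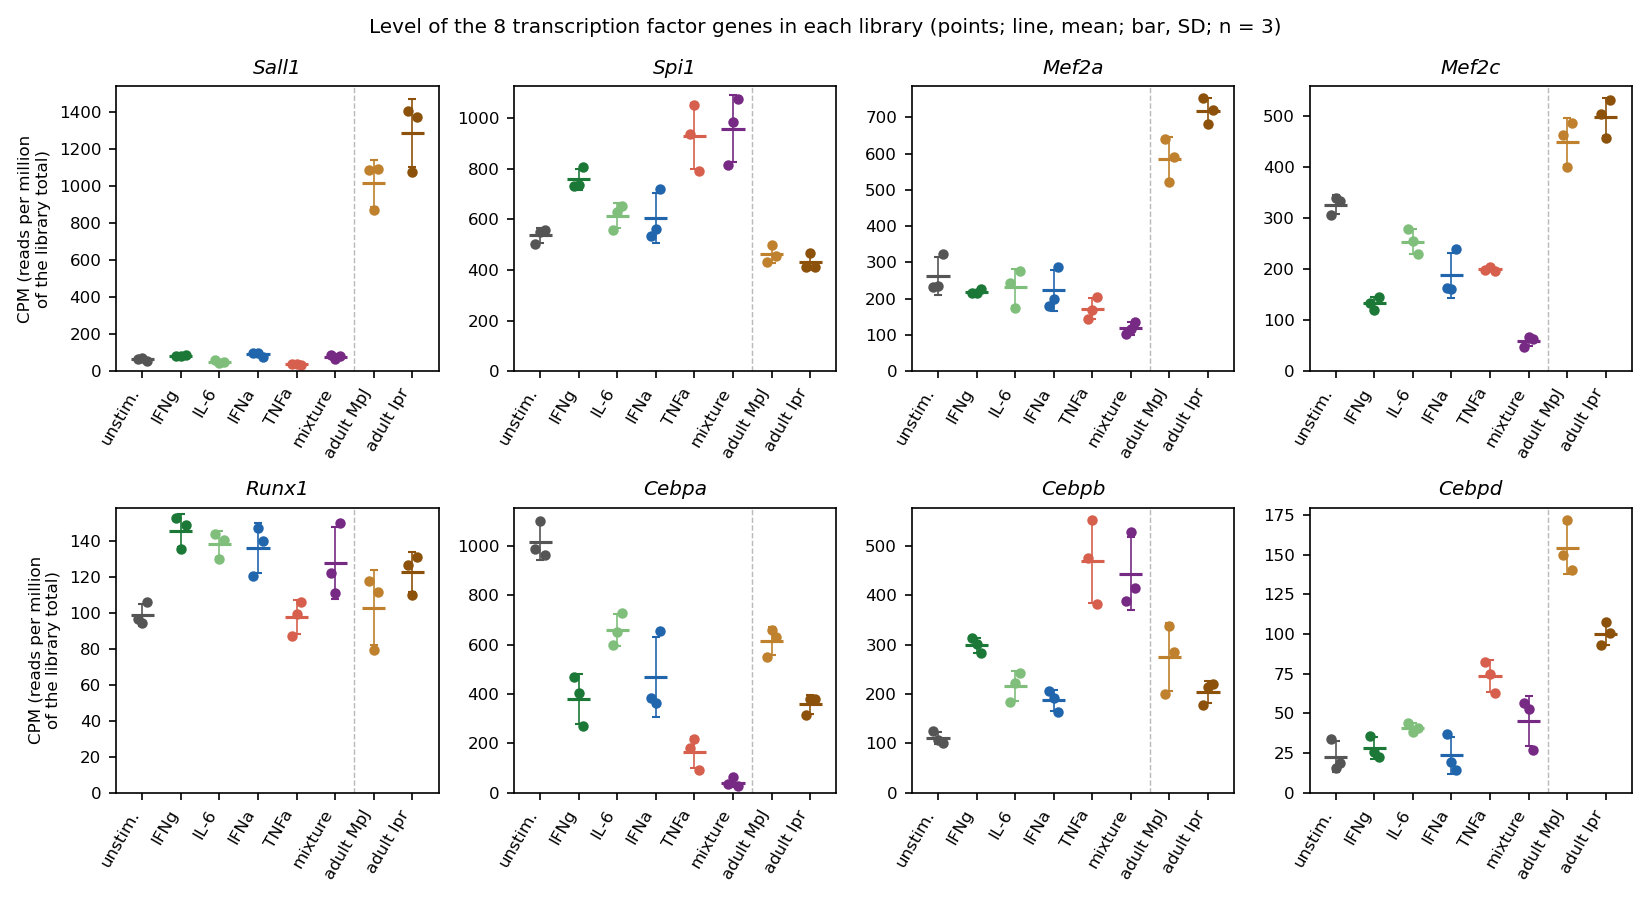
Plain CPM (counts per M counts of the library) of the 8 genes in each of the 24 libraries, as points, with the group mean as a line and the SD as a bar (n = 3). Axes start at 0 and differ between genes. Sall1 is at 868 or above in all adult libraries and at 99.9 or below in all neonatal libraries, and Cebpa drops to 25.4 to 61.7 with the mixture.

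Per length, and with the caution on joined exons given above, the leading factor differed between groups. In unstimulated neonatal cells Cebpa led with 386 ± 28.1 plain CPM per kb, followed by Spi1 (199 ± 11.3) and Cebpb (73.7 ± 7.96), with Sall1 at 12.01 ± 1.46. With the mixture Spi1 (356 ± 49.5) and Cebpb (295 ± 49.2) led and Cebpa stood at 15.4 ± 7.17. In adult MRL/lpr cells Sall1 led with 244 ± 34.5, then Spi1 (159.9 ± 11.8), and Cebpa (136 ± 14.5) and Cebpb (136 ± 15.26) were level. In adult MRL/MpJ cells Cebpa led with 233 ± 21.3, followed by Sall1 (193 ± 24.2), Cebpb (183 ± 46.1) and Spi1 (171 ± 12.8), and the Cebpa libraries lay above those of Sall1.

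Finally, for each factor the 3 genes with the most similar course over the 18 neonatal libraries were sought by Pearson correlation of log2 CPM among 9537 genes. These are descriptions, since the libraries share replicate numbers, controls and scaling, and the 6 groups form clusters. For Cebpa they were Tnfrsf21 (0.96), Fance (0.96), Arhgap19 (0.95). For Cebpb they were Slc2a1 (0.96), Ikbke (0.95), Relb (0.94), where Slc2a1 encodes a glucose transporter, Ikbke a kinase of innate signalling and Relb an NF-kappaB subunit. Cebpd had Mmp14 (0.91), Il1b (0.88), Sept11 (0.85), and Il1b encodes interleukin 1 beta. Sall1 had Atf3 (0.95), Hpse (0.95), P2ry13 (0.93), the last of them from the homeostatic list and Atf3 from the isolation response list. Spi1 had Mvp (0.95) and Lrp10 (0.93) among its 3. Mef2c had Asap1 (0.98), Dele1 (0.95), Chst10 (0.95) and Mef2a had Pianp (0.92), Cln6 (0.92), Inpp5d (0.92). Runx1 had Adcy4 (0.95), Gatm (0.95), Zfp281 (0.94).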

How the data were processed

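RNA was measured in 24 libraries of CD11b-selected mouse microglia, prepared with column RNA and a strand-specific kit per the labels' protocols. Reads were trimmed with cutadapt 2.1 and aligned with STAR 2.7.1a to mm10, per the submitters' processing notes. The values are raw counts per gene as deposited by the authors. Which program counted the reads, with which annotation and strand setting, is not given in the sources used here.

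Counts were filtered (filterByExpr), scaled by TMM and tested with edgeR 4.0.16 (robust quasi-likelihood F test, R 4.3.3), with Benjamini-Hochberg adjustment over all genes tested and a threshold of 0.05. Each SE was taken as the size of the log2 change over the root of its F statistic. Separate fits held the 6 adult libraries (13799 genes), the 18 neonatal libraries (14626 genes), and adult MRL/lpr with unstimulated neonatal libraries (14064 genes). The fitting code was tested on simulated data. C/EBP shares were compared by exact permutation. Alternatives were DESeq2 1.42.0, limma-voom (limma 3.58.1), RLE or total-count scaling, other filters, other sets of libraries, a replicate block and leaving out each library.

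The neonatal replicate numbers pair the libraries: all 45 pairs of same-numbered libraries had deviations correlated above 0.1 (0.184 to 0.687). In the adults 2 of 3 did (0.0595 to 0.154), so these were not taken as pairs. The factors and gene lists were chosen with earlier results of these data known. From each list up to 3 called genes with the largest absolute change were named. Cd14, P2ry13 and Csf1r in the cytokine comparisons, C3 with the mixture, Tmem119 with TNFa, Siglech between strains, and Cd68 in adult against neonatal cells fall outside that rule and were chosen after their values were seen. Some members of the lists, counted in the sums and counts given, and some genes of similar course are not reported by name here. Named genes with the most similar course were the 3 highest Pearson correlations of log2 CPM (prior count 2, mean log2 CPM of at least 2).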

Additional observations from a re-analysis of the deposited data

Results flagged for a closer look

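Sall1 moved in opposite directions against unstimulated cells with TNFa, where every library lay below the control, and with IFNg, IFNa and the mixture, where every library lay above it on TMM scaling. In plain CPM 1 mixture library (63.9) lay below 2 unstimulated ones (65.1 and 69.8), and on total counts the calls with IFNg (adjusted p = 0.0991) and the mixture (0.115) were lost. The differences themselves passed edgeR's test: the log2 difference was 1.32 for IFNg against TNFa (adjusted p = 1.9e-05), 1.43 for IFNa against TNFa (adjusted p = 5.52e-06) and 1.46 for the mixture against TNFa (adjusted p = 3.44e-06). The 3 differences share the TNFa libraries.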

How the results depend on the processing

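The alternatives were run on the 117 log2 changes of single factors given in the text, not on other differences between stimuli. Of the resulting values 1550 kept their direction and side of the threshold, 86 lost a call, 63 gained one and 27 changed sign, none of which were called in the main analysis. Of the counts and shares, 209 stayed close and 12 moved. The replicate block, which uses the pairing of the neonatal libraries, gave 3 of 8 called with IL-6 (4.88% of all genes), 3 for the mixture against the sum (6.56%) and 30 over the pairs of single cytokines (13.7% to 26.7% of all genes in a pair). A fit of only the groups compared gave 0 with IL-6. Leaving out 1 library gave 3 to 6 called with IFNg and 2 to 4 with IFNa. Without division by gene length, the rise of the Cebpb share was 33.2 percentage points with IFNg, 13.9 with IL-6, 57.4 with TNFa and 21.1 in adult MRL/lpr against unstimulated neonatal cells. Signs changed as follows, as log2 changes. On total counts they were 0.15 for Mef2c and 0.25 for Runx1 between adult strains, -0.021 for Runx1 with TNFa, -0.092 and -0.22 for Sall1 in the mixture against IFNg and IFNa, and -0.083 for Cebpb in the mixture against TNFa. Between adult strains Runx1 was 0.0014 by DESeq2, 0.0066 by limma-voom, 0.0012 with RLE size factors, 0.058 with no filter and 0.0084 with the replicate block, and Mef2a was -0.030 with all 24 libraries in 1 fit. Leaving out 1 library at a time, the adult strain values ran from -0.038 to 0.21 for Sall1, -0.057 to 0.12 for Mef2a and -0.18 to 0.11 for Runx1. Mef2a ran from -0.25 to 0.15 with IFNg, -0.36 to 0.085 with IL-6 and -0.34 to 0.18 with IFNa. Cebpd ran from -0.17 to 0.52 with IFNa, Runx1 from -0.070 to 0.20 with TNFa and -0.025 to 0.19 in adult against neonatal cells, and Sall1 from -0.062 to 0.22 in the mixture against IFNa. Apart from the fewer samples of the leave-one-out fits, the cause was not tested. Over all genes, libraries of the same group differed more than counting alone gives (chi-square per degree of freedom 5.07 to 67, 24 pairs). This was not measured for the 8 factors singly, which had 208 reads or more in each library.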

Other observations

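Of 18 other lineage factors of microglia and macrophages tested with the mixture, 6 rose and 6 fell, where 32% of all genes were called. Rxra, a nuclear receptor partner, fell (log2 change -2.56 ± 0.31, edgeR adjusted p = 1.04e-05), as did Bhlhe41, a repressor that marks tissue macrophages (log2 change -2.14 ± 0.31, edgeR adjusted p = 5.28e-05), while Irf8, an interferon-induced partner of PU.1, rose (log2 change 2.42 ± 0.36, edgeR adjusted p = 8.37e-05). In adult MRL/lpr against unstimulated neonatal cells 9 were higher and 6 lower, where 65.1% of all genes were called, with Tfec (log2 change -3.62 ± 0.23, edgeR adjusted p = 4.26e-06) and Nr1h3 (log2 change -2.73 ± 0.32, edgeR adjusted p = 0.000117) lower and Lyl1 higher (log2 change 3.06 ± 0.16, edgeR adjusted p = 1.38e-06). Between the adult strains 4 were higher and 5 lower in MRL/lpr, near the 45.7% of all genes called, with Egr2 higher (log2 change 2.08 ± 0.39, edgeR adjusted p = 0.00104) and Rxra lower (log2 change -0.67 ± 0.11, edgeR adjusted p = 0.000493).

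Within the neonatal groups, after the group means were taken out, deviations of Cebpd over the 18 libraries correlated negatively with those of Mef2c (Pearson r = -0.73), Spi1 (-0.72), Runx1 (-0.69) and Mef2a (-0.60). Those of Mef2a and Runx1 correlated at 0.82 and those of Spi1 and Mef2c at 0.81. These are descriptions over libraries that share replicate numbers and scaling.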
